A study of Mus musculus with 27 samples.

Results

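DNA repair genes were followed in the irradiated mouse lung. The set held 37 genes of 18194 that could be measured, and each gene was read from its brightest probe set. The set was chosen by name from the known repair pathways, with earlier results of these data known. Of the 37 genes, Mgmt and Polk rose in the lungs of all 3 strains, 2.65-fold and 1.88-fold over the sham-irradiated level, and Ercc5, Xrcc5 and Msh6 rose by smaller amounts. Brca1, Rad54l, Ung, Parp1, Polh and Atm fell, and the other 26 did not pass the threshold. The calls of Brca1, Polh, Ercc5, Rad54l, Parp1 and Atm rested on the brightest probe set alone, since no other probe set of these genes passed. Those of Polh, Atm and Xrcc5 were lost without 9 arrays that carried skeletal muscle transcripts.

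Lung RNA had been measured on 27 Affymetrix whole-genome mouse arrays, one per mouse. The mice were females of the inbred strains C57L/J, C57BL/6J and CBA/J, 10 to 12 weeks old at irradiation, and no sample was pooled. The whole thorax received 0 Gy (sham irradiation), 12.5 Gy or 15 Gy of X-rays, and the right upper lobe was taken 24 hours later, with 3 mice in each of 9 groups. The study treats C57L/J as its radiation-sensitive model and C57BL/6J as its resistant one. The sample labels name no transgene or engineered deletion, and the sham-irradiated mice of each strain are the only controls.

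Ionizing radiation breaks DNA strands and damages bases, and cells answer with several repair pathways. Double-strand breaks are sensed by the MRN complex and the kinases ATM and ATR and are rejoined by homologous recombination, which needs a sister chromatid and therefore a cycling cell, or by end joining, which does not. Damaged bases and bulky adducts are removed by excision repair, translesion polymerases copy past lesions that remain, and the transcription factor p53 raises the transcription of some of these genes together with that of arrest genes such as Cdkn1a.

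All levels below are log2 intensities, and a change is the difference of mean log2 intensity between irradiated and sham-irradiated lungs, with its standard error (SE). Levels of different genes come from different probes and are not set against each other. A gene was called when its Benjamini-Hochberg adjusted p in limma, taken over all 18194 genes, was under 0.05. A lung is a mixture of cells, so fewer cells of a type and less RNA per cell cannot be told apart.

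Some features of the arrays touch the results. Markers of lung epithelium were high in every lung, with a mean of 6 genes between 13.4 and 14.1. Such markers cannot show whether other tissue was also present. On 9 arrays 10 skeletal muscle genes averaged 2.07 to 8.12 above the median array, against at most 0.37 on the other 18; these were CBA/J 0 Gy replicates 1 and 2, CBA/J 12.5 Gy replicates 2 and 3, C57BL/6J 12.5 Gy replicates 1 and 2, C57BL/6J 15 Gy replicates 2 and 3, and C57L/J 15 Gy replicate 3. The same 9 arrays also carried more transcripts of 7 squamous epithelium genes. Their mean was 7.565 to 11.97 there, against at most 6.59 on the other 18. C57L/J 15 Gy replicate 3 had the highest mean of the thymocyte markers too, 8.18. For the members described array by array, the change without these 9 arrays is given with the result. Irradiation itself was visible in reference genes: Cdkn1a, a cell cycle inhibitor that p53 induces, rose by 3.16 ± 0.10 (SE), the largest rise of any gene measured, and Mki67, a marker of cycling cells, fell by 2.71 ± 0.37, the largest fall.

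Upstream sequence is shown first for the members whose changes were largest in each direction. The 250 bases before an annotated start were available for 30 of the 37 members, from RefSeq on GRCm38.p6, and capitals mark the motifs found on either strand. The motifs searched were the 10-base p53 half-site, the E2F motifs TTTCCCGC, TTTGGCGC, TTTCGCGC and TTTGCCGC, the CCAAT box (CCAAT), the GC box (GGGCGG) and the CHR element (TTTGAA, not marked). Mgmt and Polk are the risers. Polk has a pair of annotated starts, both shown, the upstream one first:
Mgmt, chr7:136894336-136894585, plus strand: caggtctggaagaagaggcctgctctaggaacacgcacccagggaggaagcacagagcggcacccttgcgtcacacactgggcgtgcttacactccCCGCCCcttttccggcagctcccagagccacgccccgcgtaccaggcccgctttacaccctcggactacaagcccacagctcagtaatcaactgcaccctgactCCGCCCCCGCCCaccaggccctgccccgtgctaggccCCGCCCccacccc
Polk, chr13:96542580-96542829, minus strand: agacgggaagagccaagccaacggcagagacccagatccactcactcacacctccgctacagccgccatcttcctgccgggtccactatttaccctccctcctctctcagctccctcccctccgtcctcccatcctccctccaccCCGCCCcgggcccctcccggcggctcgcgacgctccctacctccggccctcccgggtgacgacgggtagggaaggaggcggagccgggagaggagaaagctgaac
Polk, chr13:96519188-96519437, minus strand: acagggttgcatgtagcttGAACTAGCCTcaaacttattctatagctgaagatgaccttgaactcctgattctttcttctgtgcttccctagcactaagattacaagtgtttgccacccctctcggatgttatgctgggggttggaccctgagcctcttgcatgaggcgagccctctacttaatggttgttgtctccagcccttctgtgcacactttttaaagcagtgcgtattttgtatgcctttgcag
Brca1 and Rad54l are the members that fell furthest, shown from the most upstream start:
Brca1, chr11:101551956-101552205, minus strand: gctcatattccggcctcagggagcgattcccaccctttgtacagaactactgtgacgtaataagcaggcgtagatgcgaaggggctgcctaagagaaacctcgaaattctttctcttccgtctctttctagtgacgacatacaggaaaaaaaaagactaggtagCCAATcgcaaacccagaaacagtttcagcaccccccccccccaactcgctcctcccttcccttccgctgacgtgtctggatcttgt
Rad54l, chr4:116123691-116123940, minus strand: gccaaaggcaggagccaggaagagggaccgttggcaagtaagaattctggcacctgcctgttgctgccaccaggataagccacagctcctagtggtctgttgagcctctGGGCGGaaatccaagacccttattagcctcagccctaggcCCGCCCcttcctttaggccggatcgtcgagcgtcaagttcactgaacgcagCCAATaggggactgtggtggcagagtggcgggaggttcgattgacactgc

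The upstream Mgmt window held 4 GC boxes, all on the opposite strand, the nearest 13 to 8 bases before the start, and no p53 half-site. Polk held 1 GC box before its upstream start and 1 p53 half-site, 231 to 222 bases before its downstream start. Brca1 held 1 CCAAT box and Rad54l 1 CCAAT box and 2 GC boxes, and neither held one of the E2F motifs. Adjacent GC boxes in Mgmt did not overlap. With 1 start per gene, the most upstream, a p53 half-site was found for 1 of 30 members (Fanca) and in 7.16% of the 27025 genes searched, an E2F motif for 2 (Brca2 and Xrcc6; 1.92% of genes), a CCAAT box for 16 (34.5%), a GC box for 21 (33%) and a CHR element for 1 (Ercc5; 16.3%). A match is a run of letters and not a shown binding site, and the array does not tell which start a transcript used.

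Irradiated lungs were first compared with sham-irradiated lungs over all strains, 18 arrays against 9, with strain in the model. Of the 37 members 11 were called (14.9% of all genes were), 5 of them higher (6.11% of all genes) and 6 lower (8.83%). The median change of the members was -0.03, against -0.01 for all genes. The share called was 29.7% of the members, a list chosen with earlier results of these data known. Over all genes 40.9% of the calls were rises, and 57.8% were when each array was centred on its median, under which the 5 risers and the fallers kept their directions. Only the directions are given here, not whether each call held under this centring.

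The genes listed as induced by p53 were Xpc, Ddb2, Polk and Polh, and these did not move together. Polk, the translesion polymerase kappa, which copies past bulky lesions and extends from mismatched ends, was the one that rose.

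In C57L/J lungs Polk read 9.39, 9.36 and 9.41 at 0 Gy, 10.13, 10.21 and 10.43 at 12.5 Gy and 10.38, 10.54 and 9.91 at 15 Gy. The C57BL/6J lungs gave Polk values of 9.88, 9.18 and 9.55 at 0 Gy, 10.49, 10.14 and 10.34 at 12.5 Gy and 10.39, 10.27 and 10.45 at 15 Gy. For CBA/J the Polk values were 9.60, 9.04 and 9.52 at 0 Gy, 10.52, 10.39 and 10.08 at 12.5 Gy and 10.58, 10.50 and 10.48 at 15 Gy. Every irradiated lung lay above every sham-irradiated lung, 9.91 and higher against 9.88 and lower, although the closest pair came from different strains. Over the whole array 0.264% of genes separated upward in this way, and among the members only Polk and Mgmt did. The change was 0.91 ± 0.086 (adjusted p = 3.67e-08 by limma), rank 254 of all genes by size of rise. The other probe set of Polk, which is dimmer, rose by 0.61 (adjusted p = 0.0012 over probe sets), and without the 9 arrays with muscle transcripts the change was 0.92.

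Polh, the translesion polymerase eta, which copies accurately past ultraviolet-induced thymine dimers, went the other way. Polh in the C57L/J lungs was 8.38, 8.71 and 8.86 at 0 Gy, 8.70, 8.59 and 8.63 at 12.5 Gy and 8.85, 8.55 and 8.51 at 15 Gy. Polh in C57BL/6J measured 8.69, 9.19 and 8.94 at 0 Gy, 8.24, 8.32 and 8.63 at 12.5 Gy and 8.51, 8.54 and 8.68 at 15 Gy. CBA/J lungs read 8.88, 8.98 and 8.89 at 0 Gy, 8.42, 8.31 and 8.68 at 12.5 Gy and 8.54, 8.63 and 8.51 at 15 Gy. In C57BL/6J and CBA/J all 6 irradiated lungs lay below the 3 sham-irradiated ones, while the C57L/J groups overlapped throughout. The change over all strains was -0.29 ± 0.079 (adjusted p = 0.0129), and it was -0.185 without the arrays with muscle transcripts, where the adjusted p was 0.253. Of the other probe sets of Polh the next brightest changed by 0.06, and the dimmer ones by -0.67 and 0.25, none of them past the threshold.

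Xpc, which recognises helix-distorting lesions at the start of global nucleotide excision repair, did not pass. Levels of Xpc in C57L/J were 9.63, 9.74 and 9.61 at 0 Gy, 9.73, 9.73 and 9.60 at 12.5 Gy and 9.48, 9.74 and 8.89 at 15 Gy. C57BL/6J mice had values of 9.61, 9.57 and 9.54 at 0 Gy, 9.39, 9.23 and 9.62 at 12.5 Gy and 9.22, 9.07 and 9.38 at 15 Gy. Xpc in CBA/J was 9.39, 9.44 and 9.56 at 0 Gy, 9.25, 9.50 and 9.41 at 12.5 Gy and 9.34, 9.34 and 9.50 at 15 Gy. The groups overlapped in all 3 strains, and the lowest value came from the C57L/J 15 Gy lung with muscle transcripts. The change was -0.15, with a 95% interval from -0.32 to 0.01 (adjusted p = 0.223), and -0.0905 without the arrays with muscle transcripts.

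Ddb2, the damage-binding subunit that hands ultraviolet lesions to Xpc, was level. C57L/J mice had Ddb2 levels of 8.94, 8.34 and 8.32 at 0 Gy, 8.74, 8.63 and 8.66 at 12.5 Gy and 8.91, 8.39 and 8.81 at 15 Gy. Its values in C57BL/6J were 8.98, 8.82 and 8.87 at 0 Gy, 8.58, 8.67 and 9.19 at 12.5 Gy and 8.70, 8.59 and 9.15 at 15 Gy. The CBA/J lungs had 8.67, 8.89 and 9.22 at 0 Gy, 8.88, 8.50 and 8.67 at 12.5 Gy and 9.13, 9.09 and 8.74 at 15 Gy. Sham-irradiated and irradiated lungs covered nearly the same range, 8.32 to 9.22 against 8.39 to 9.19. The interval of the change ran from -0.21 to 0.20, so a rise of the size of that of Polk was not within it. Without the arrays with muscle transcripts the change was 0.0249. The second probe set changed by 0.08 (adjusted p = 0.739 over probe sets by limma).

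**Figure D1:**
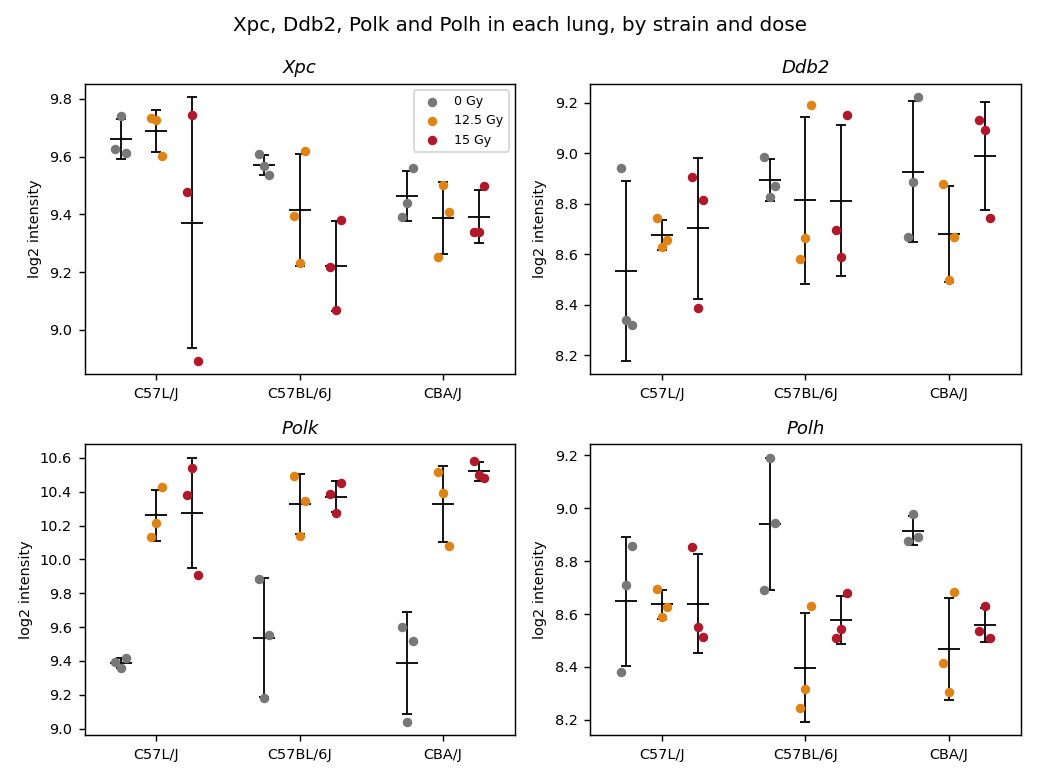
Log2 intensity (vertical axis) of Xpc, Ddb2, Polk and Polh in each of the 27 lungs, by strain (horizontal axis) and dose (colour). Points are single arrays, and the black bars give the mean and SD of 3 arrays. In the Polk panel the irradiated lungs stand above the sham-irradiated ones in each strain. The Xpc and Ddb2 panels overlap, and Polh is lower after irradiation in C57BL/6J and CBA/J.

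The wider list of p53 targets did rise in the same lungs. Of 18 measured targets outside the repair set 12 were called higher and 0 lower, with a median change of 1.02, and their mean per lung was 9.64 to 9.90 in sham-irradiated and 10.6 to 10.9 in irradiated lungs. Mdm2, the ubiquitin ligase that restrains p53, rose by 0.68 ± 0.12 (adjusted p = 0.000313). Among the repair genes listed under p53 only Polk rose, and Xpc, Ddb2 and Polh are referred to below by name.

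The largest rise among the members was that of Mgmt, the methyltransferase that takes alkyl groups off guanine in a single step, without excising the base. Per lung, C57L/J Mgmt was 6.15, 5.75 and 6.69 at 0 Gy, 7.16, 7.35 and 8.29 at 12.5 Gy and 7.45, 7.70 and 7.23 at 15 Gy. For C57BL/6J they were 6.82, 6.66 and 5.93 at 0 Gy, 7.66, 7.92 and 7.37 at 12.5 Gy and 7.64, 7.88 and 7.02 at 15 Gy. In CBA/J it stood at 5.32, 6.06 and 5.89 at 0 Gy, 7.41, 7.92 and 7.34 at 12.5 Gy and 7.26, 7.63 and 7.66 at 15 Gy. All 18 irradiated lungs, from 7.02 upward, lay above all 9 sham-irradiated lungs, which reached 6.82. The change was 1.41 ± 0.15 (adjusted p = 3.74e-07), rank 60 of all genes by size of rise, and it was 1.32 without the arrays with muscle transcripts. Mgmt had 1 probe set, so no second measurement of it exists on the array.

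Among the 6 nucleotide excision genes Ercc5 alone was called. Ercc5 encodes XPG, the nuclease that cuts on the 3′ side of the lesion. In C57L/J lungs Ercc5 read 9.86, 9.95 and 9.83 at 0 Gy, 10.21, 10.10 and 10.04 at 12.5 Gy and 10.17, 10.34 and 9.68 at 15 Gy. The C57BL/6J lungs gave Ercc5 values of 9.51, 9.62 and 9.38 at 0 Gy, 10.18, 10.20 and 10.26 at 12.5 Gy and 10.19, 10.07 and 10.35 at 15 Gy. For CBA/J the Ercc5 values were 9.53, 9.54 and 9.59 at 0 Gy, 10.00, 9.92 and 9.67 at 12.5 Gy and 9.89, 9.99 and 9.98 at 15 Gy. In C57BL/6J and CBA/J the irradiated and sham-irradiated lungs did not overlap, and in C57L/J a single lung at 15 Gy, the one with muscle transcripts, was below the controls. The change over all strains was 0.42 ± 0.073 (adjusted p = 0.000188), and 0.44 without the arrays with muscle transcripts. Its other probe set, near background at a mean of 4.70, changed by 0.11.

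The rest of the nucleotide excision genes stayed within small intervals. Ercc1 and Ercc4, the partners of the nuclease that cuts on the 5′ side, changed by 0.08 and 0.16. The helicases of TFIIH, Ercc2 and Ercc3, changed by -0.12 and -0.11, and the damage verifier Xpa by -0.07. None of these was called, with adjusted p from 0.346 for Ercc4 to 0.623 for Ercc2. A dimmer probe set of Ercc1 (mean 8.69) did rise by 0.32 (adjusted p = 0.00677 over probe sets), so the probe sets of Ercc1 disagreed.

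Msh6, the partner in the complex that recognises base mismatches, rose a little. Msh6 in the C57L/J lungs was 8.89, 8.87 and 8.89 at 0 Gy, 9.30, 9.49 and 9.17 at 12.5 Gy and 9.31, 9.21 and 9.22 at 15 Gy. Msh6 in C57BL/6J measured 8.94, 9.11 and 8.85 at 0 Gy, 9.04, 8.93 and 9.14 at 12.5 Gy and 9.17, 9.16 and 9.14 at 15 Gy. CBA/J lungs read 8.81, 8.87 and 8.76 at 0 Gy, 8.99, 9.20 and 8.73 at 12.5 Gy and 9.16, 9.38 and 9.26 at 15 Gy. In C57L/J the 6 irradiated lungs were above the 3 controls, and in both other strains 1 or more irradiated lungs fell among or below the controls. The change was 0.28 ± 0.064 (adjusted p = 0.00316) and 0.35 without the arrays with muscle transcripts. Pms2, which acts after recognition, changed by -0.09 and was not called.

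Xrcc5 encodes Ku80, a part of the ring that caps broken ends for end joining. Levels of Xrcc5 in C57L/J were 8.33, 8.50 and 8.31 at 0 Gy, 8.42, 8.94 and 8.94 at 12.5 Gy and 8.67, 8.78 and 8.74 at 15 Gy. C57BL/6J mice had values of 8.68, 8.28 and 8.32 at 0 Gy, 8.77, 8.50 and 8.78 at 12.5 Gy and 8.72, 8.46 and 8.54 at 15 Gy. Xrcc5 in CBA/J was 7.99, 8.24 and 8.79 at 0 Gy, 8.60, 8.53 and 9.17 at 12.5 Gy and 8.75, 8.56 and 8.69 at 15 Gy. Groups overlapped in each strain. The change was 0.31 ± 0.089 (adjusted p = 0.0166), and without the arrays with muscle transcripts 0.25 (adjusted p = 0.12). Its partner Xrcc6 (Ku70) changed by 0.20 and the ligation scaffold Xrcc4 by 0.19, neither past the threshold over all arrays, although Xrcc4 was called without the 9 arrays with muscle transcripts (0.32, adjusted p = 0.0111). Prkdc, the kinase that Ku recruits, changed by 0.04 and the ligase Lig4 by -0.21 (adjusted p = 0.736 and 0.119). The 5 end-joining genes thus gave 1 called gene, with a median change of 0.19.

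The largest falls were those of Brca1 and Rad54l, 2 of the 4 members of homologous recombination. Brca1, the tumour suppressor that helps commit a break to recombination, fell most. C57L/J mice had Brca1 levels of 6.30, 6.99 and 6.82 at 0 Gy, 6.29, 5.80 and 5.97 at 12.5 Gy and 6.31, 6.27 and 6.21 at 15 Gy. Its values in C57BL/6J were 6.75, 7.17 and 6.68 at 0 Gy, 5.98, 5.59 and 5.93 at 12.5 Gy and 5.81, 6.53 and 5.86 at 15 Gy. The CBA/J lungs had 7.48, 6.67 and 6.79 at 0 Gy, 6.01, 6.24 and 6.10 at 12.5 Gy and 6.15, 6.42 and 6.70 at 15 Gy. All irradiated C57BL/6J lungs were below the controls, and in CBA/J and C57L/J the ranges met at 1 control or 1 irradiated lung. The change was -0.73 ± 0.12 (adjusted p = 9.73e-05), and -0.68 without the arrays with muscle transcripts.

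The second probe set of Brca1 was nearly as bright (mean 6.33 against 6.36) and changed by -0.06. The dimmest of the 4 Brca1 probe sets changed by -0.02, so the fall was carried by 1 of 4 probe sets. Both the Brca1 and the Rad54l probe set had means below an intensity of 100, where the signal was dim.

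Rad54l, the motor protein that helps the recombinase invade the sister duplex, was the other to fall. Per lung, C57L/J Rad54l was 7.20, 6.74 and 7.40 at 0 Gy, 6.40, 6.04 and 5.96 at 12.5 Gy and 6.14, 6.54 and 6.93 at 15 Gy. For C57BL/6J they were 6.63, 7.0 and 6.90 at 0 Gy, 6.01, 7.30 and 6.47 at 12.5 Gy and 6.25, 6.29 and 6.82 at 15 Gy. In CBA/J it stood at 7.20, 6.82 and 7.12 at 0 Gy, 6.03, 6.25 and 5.89 at 12.5 Gy and 6.68, 6.36 and 6.17 at 15 Gy. The CBA/J groups did not overlap, whereas in C57BL/6J the highest of all 9 values was an irradiated lung, 7.30 at 12.5 Gy. The change was -0.64 ± 0.14 (adjusted p = 0.00255) and -0.75 without the arrays with muscle transcripts. Its 3 other probe sets, all dimmer, changed by -0.08, -0.34 and -0.72, none past the threshold (adjusted p = 0.947, 0.594 and 0.223 over probe sets by limma). Brca2, the loader of the recombinase, changed by -0.03 and Rad52, a mediator of annealing, by 0.06.

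Ung removes uracil from DNA and is the first enzyme of its base excision branch. In C57L/J lungs Ung read 7.10, 7.46 and 7.22 at 0 Gy, 6.53, 6.77 and 6.80 at 12.5 Gy and 6.83, 6.73 and 7.03 at 15 Gy. The C57BL/6J lungs gave Ung values of 7.20, 7.20 and 7.28 at 0 Gy, 6.77, 6.84 and 6.97 at 12.5 Gy and 7.17, 7.02 and 7.18 at 15 Gy. For CBA/J the Ung values were 7.75, 7.64 and 7.61 at 0 Gy, 6.88, 7.15 and 7.95 at 12.5 Gy and 6.64, 7.01 and 6.81 at 15 Gy. In C57L/J and C57BL/6J every irradiated lung was below every control, and in CBA/J 1 lung at 12.5 Gy, with muscle transcripts, was the highest of the strain at 7.95. The change was -0.44 ± 0.11 (adjusted p = 0.00576), and -0.47 without the arrays with muscle transcripts. The glycosylases Ogg1 and Mutyh, which deal with oxidised guanine, changed by 0.12 and -0.30, and the endonuclease Apex1 by 0.11, and none was called.

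Parp1, the sensor of single-strand breaks that builds poly(ADP-ribose) chains, fell as well. Parp1 in the C57L/J lungs was 10.15, 10.27 and 10.30 at 0 Gy, 9.51, 9.99 and 10.02 at 12.5 Gy and 9.40, 10.08 and 9.83 at 15 Gy. Parp1 in C57BL/6J measured 9.98, 9.78 and 9.71 at 0 Gy, 9.48, 9.75 and 9.00 at 12.5 Gy and 9.50, 9.21 and 9.13 at 15 Gy. CBA/J lungs read 9.71, 9.66 and 9.81 at 0 Gy, 9.33, 9.23 and 9.66 at 12.5 Gy and 9.50, 9.60 and 9.76 at 15 Gy. The C57L/J groups separated, and those of the other strains overlapped. The change was -0.38 ± 0.092 (adjusted p = 0.0059), and -0.45 without the arrays with muscle transcripts. Parp1 had 4 probe sets, of which 3 changed by -0.36 to -0.38 and 1 by -0.12. Apart from the brightest, none passed the threshold (adjusted p = 0.424, 0.0576 and 0.0686 over probe sets by limma). The other single-strand break genes did not pass: the scaffold Xrcc1 changed by -0.10, the ligase Lig3 by -0.01 and Parp2 by 0.03.

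Atm, the kinase that starts the response to double-strand breaks, was the smallest fall called. Levels of Atm in C57L/J were 9.22, 9.24 and 9.30 at 0 Gy, 9.10, 8.96 and 8.68 at 12.5 Gy and 8.92, 9.00 and 8.96 at 15 Gy. C57BL/6J mice had values of 9.07, 9.06 and 9.03 at 0 Gy, 8.76, 8.78 and 8.93 at 12.5 Gy and 9.08, 9.18 and 8.85 at 15 Gy. Atm in CBA/J was 9.06, 9.15 and 9.12 at 0 Gy, 9.10, 8.92 and 8.95 at 12.5 Gy and 8.68, 8.83 and 9.13 at 15 Gy. Only in C57L/J were all irradiated lungs below the controls. The change was -0.21 ± 0.061 (adjusted p = 0.0213). It kept its size without the arrays with muscle transcripts, -0.21, where the adjusted p was 0.117, and leaving out C57L/J 0 Gy replicate 3 gave an adjusted p of 0.0521. The second Atm probe set, about as bright (mean 8.99 against 9.00), changed by -0.13 and did not pass (adjusted p = 0.221 over probe sets). Atr changed by 0.08, and Rad50, Mre11a and Nbn, the parts of the MRN complex, by -0.09, 0.10 and -0.08, with no call. The Fanconi anaemia genes Fancd2 and Fanca, which act at crosslinks, changed by -0.09 and -0.04, and the interval for Fancd2 was wide, from -0.70 to 0.52.

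**Figure D2:**
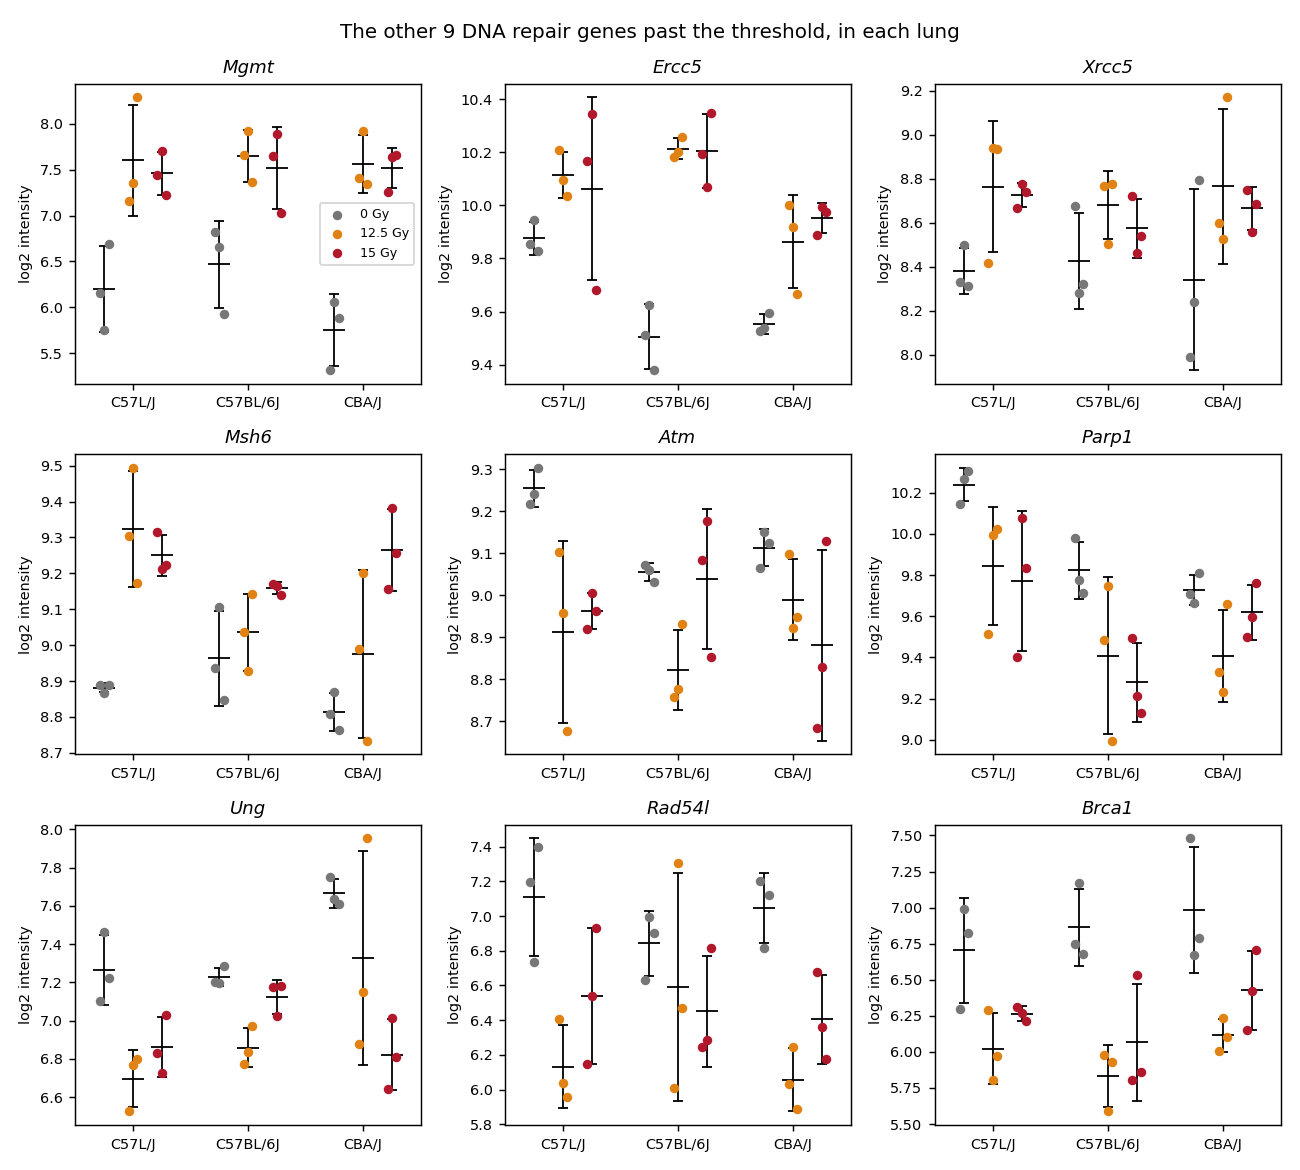
Log2 intensity (vertical axes) in each lung for the 9 called members other than Polk and Polh, by strain (horizontal axis) and dose (colour), with the mean and SD of 3 arrays in black. Mgmt separates completely between sham and irradiated lungs, and Brca1 and Rad54l lie lower in most irradiated lungs.

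**Figure D3:**
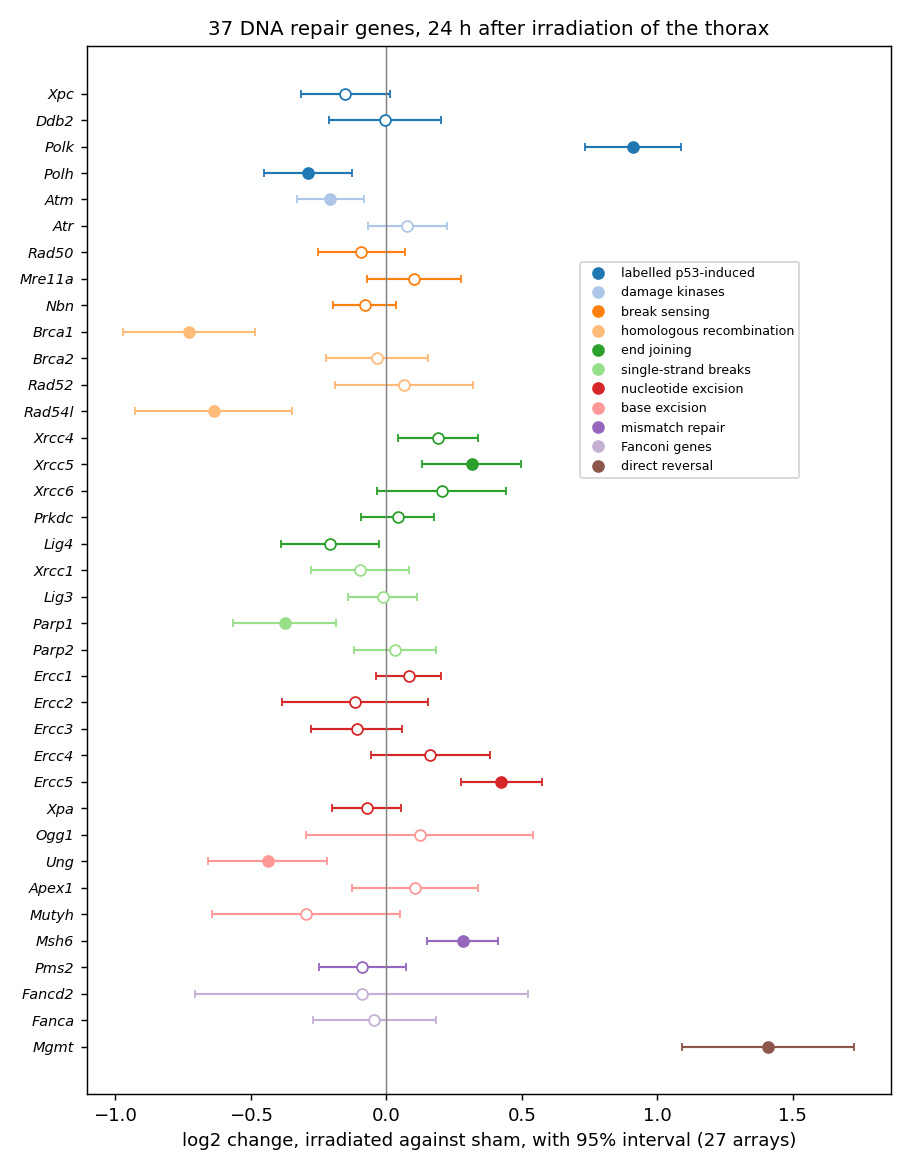
Log2 change of each of the 37 members, irradiated against sham, over 27 arrays, with 95% intervals (horizontal axis). Colours give the repair role, and filled points are the 11 genes with an adjusted p under 0.05. Mgmt at 1.41 and Polk at 0.91 stand to the right of the other members.

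Markers of cycling cells, lymphocytes and, in part, endothelium and thymocytes moved in the same lungs. Of 19 proliferation genes 15 were called lower and 0 higher, with a median change of -0.99, and their mean per lung was 7.20 to 7.83 in sham-irradiated and 6.20 to 7.01 in irradiated lungs. Of 5 endothelial markers 2 were called lower (median -0.36), with a mean of 11.8 to 12.6 in sham-irradiated and 11.2 to 12.5 in irradiated lungs. Of 6 thymocyte markers 2 were called lower (median -0.56), with a mean of 4.90 to 6.84 in sham-irradiated and 3.67 to 8.18 in irradiated lungs. Of 9 B cell markers 8 were called lower (median -1.63), with a mean of 8.52 to 9.25 in sham-irradiated and 6.38 to 8.32 in irradiated lungs. Of 8 T cell markers 7 were called lower (median -1.02), with a mean of 7.58 to 8.30 in sham-irradiated and 6.37 to 9.08 in irradiated lungs, the highest being C57L/J 15 Gy replicate 3, one of the arrays with muscle transcripts. No gene of these lists was at 0 on every array, but 1 thymocyte marker was at 0 on at least 1 array. Macrophage markers gave 0 calls of 5 (median 0.17), and lung epithelium markers 0 of 6 (median -0.08). The part of these cells in the falls of Brca1, Rad54l, Ung, Parp1, Polh and Atm was not tested.

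A further 113 measured genes of the same pathways gave 6 called higher and 18 called lower, with a median change of -0.11. That is 5.31% higher and 15.9% lower, against 6.11% and 8.83% of all genes. In damage signalling the changes were led by Clspn, the replication checkpoint mediator, which fell by 0.82. Chek2, the checkpoint kinase below ATM, rose by 0.47, the histone H2ax fell by 0.42 and the clamp subunit Hus1 fell by 0.40. Among 27 further recombination genes 6 were called, all lower: Palb2, the link between Brca1 and Brca2, by -0.46, the single-strand binding subunit Rpa2 by -0.45, the topoisomerase Top3a by -0.42, and the nuclease Dna2 by -0.36 as the largest.

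Of the base excision genes linked to replication, the flap nuclease Fen1 fell by 0.49 and the ligase Lig1 fell by 0.39. Nhej1, the end-joining factor XLF, rose by 0.43, Parp3 by 0.34, and Alkbh3, which reverses alkylation as Mgmt does but by oxidation, by 0.24. Nucleotide excision gave Cul4b (-0.33), Xab2 (-0.26) and Gtf2h5 (0.20), translesion synthesis Primpol (-0.41) and Shprh (-0.22), and the Fanconi genes Fancf (-0.23). None of the 3 further mismatch repair genes was called.

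Each dose was then compared with 0 Gy within a strain, 3 arrays against 3. At an adjusted p under 0.05 the members called were 0 in C57L/J at 12.5 Gy (0.517% of all genes) and at 15 Gy (0%), 0 in C57BL/6J at 12.5 Gy (0.484%) and at 15 Gy (0.066%), and 0 in CBA/J at 12.5 Gy (0.033%). In CBA/J at 15 Gy 1 member was called (1.01%), Mgmt, with an adjusted p of 0.0472 in limma. This call was lost when any of the 6 arrays was left out (adjusted p up to 0.17 in limma), with the replicate block (0.182), with the muscle score (0.252), without the arrays with muscle transcripts (0.238) and with the mean or the most variable probe set. Where limma called 0 members, the random variance t test also called 0. In those comparisons 4 to 8 members had an unadjusted limma p under 0.05, a threshold at which the share of all genes was not counted. Counted instead by an unadjusted p under 0.01, the threshold used in the original work, the members were 4 and 2 in C57L/J (4.53% and 1.86% of all genes), 4 and 2 in C57BL/6J (3.65% and 3.81%) and 3 and 5 in CBA/J (3.28% and 5.61%), at 12.5 and 15 Gy in turn.

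Polk passed in 5 and Mgmt in 4 of the 6 comparisons. Polk changed by 0.87 ± 0.11 and 0.89 ± 0.20 in C57L/J at 12.5 and 15 Gy. In C57BL/6J the Polk changes were 0.79 ± 0.22 and 0.83 ± 0.20, and in CBA/J 0.94 ± 0.22 and 1.14 ± 0.18. Mgmt changed by 1.40 ± 0.38 and 1.26 ± 0.28 in C57L/J, by 1.18 ± 0.29 and 1.05 ± 0.33 in C57BL/6J, and by 1.80 ± 0.27 and 1.76 ± 0.24 in CBA/J. The pair of comparisons in a strain shares its 3 sham-irradiated lungs.

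Other members passed this unadjusted threshold in places. Ercc5 did so in C57BL/6J at both doses and in CBA/J at 15 Gy, Rad54l in C57L/J and CBA/J at 12.5 Gy, Ung in C57L/J (12.5 Gy) and CBA/J (15 Gy), Msh6 in the same pair of groups, and Brca1 and Lig4 in C57BL/6J at 12.5 Gy. Xpc, Ddb2 and Polh passed it nowhere, and their changes ran from -0.35 to 0.03, from -0.25 to 0.17 and from -0.54 to -0.01 over the 6 comparisons.

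**Figure D4:**
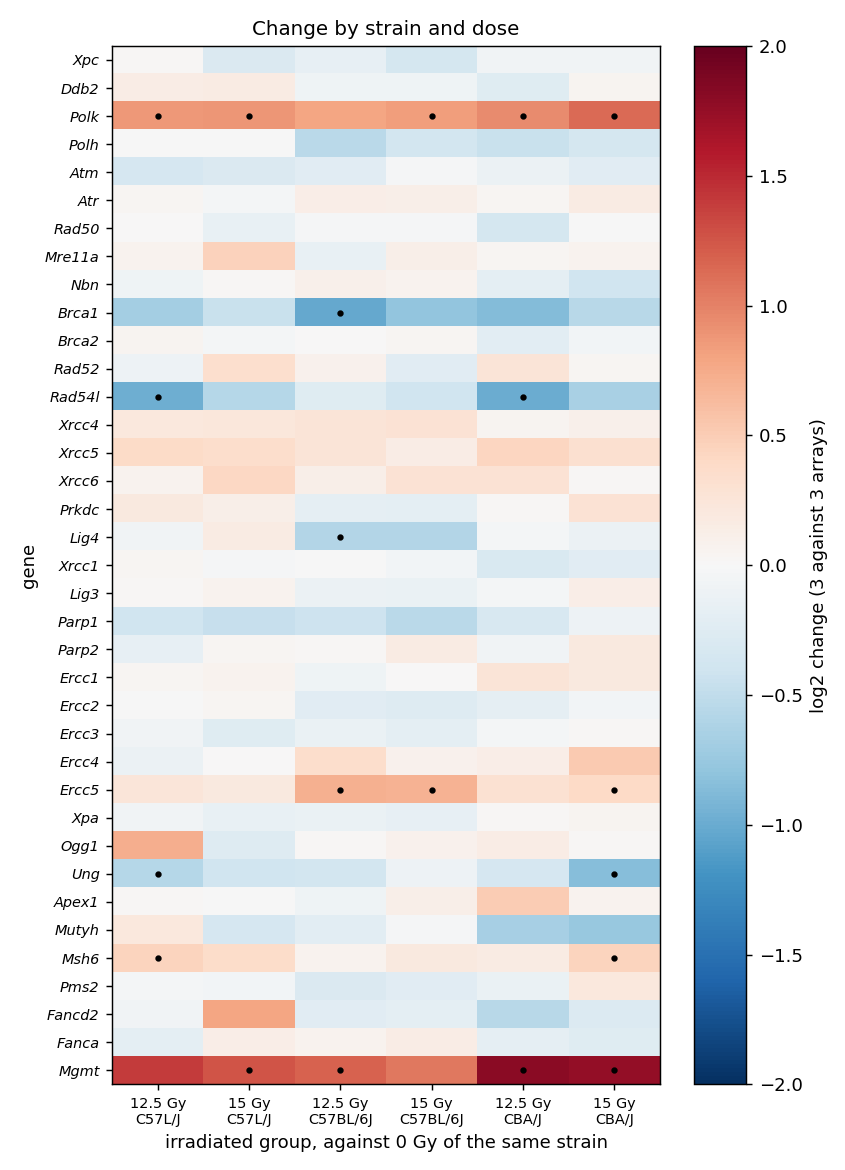
Log2 change of the 37 members (rows) in each irradiated group against the 3 sham-irradiated lungs of the same strain (columns), with red for a rise and blue for a fall. Dots mark an unadjusted p under 0.01. The Polk and Mgmt rows are red in all 6 columns, and the Brca1 and Rad54l rows are blue.

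The doses themselves did not differ detectably for any member. With strain in the model and 9 arrays per dose, 15 Gy against 12.5 Gy gave 0 called members (0% of genes by limma, and 0.594% at an unadjusted p under 0.01, where 0 members passed). At an unadjusted p under 0.05, 3 members passed, and the share of all genes that did was not counted. The interval of the difference ran from -0.11 to 0.28 for Polk and from -0.44 to 0.24 for Mgmt. Brca1 was 0.26 higher at 15 than at 12.5 Gy, with an unadjusted limma p of 0.029 and an adjusted p of 0.999.

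Strains were compared in their response by a test of the interaction over all 27 arrays. No gene was called (0%) by limma. An unadjusted p under 0.05 was seen for 5 members, but the share of all genes at that threshold was not counted. Below 0.01 the one member was Lig4 (1.28% of all genes passed), with an adjusted p of 0.599 in limma. Lig4, the ligase that closes double-strand breaks, changed by -0.59 ± 0.12 in C57BL/6J, against -0.08 ± 0.12 in CBA/J and 0.04 ± 0.12 in C57L/J. The unadjusted interaction p of limma was 0.559 for Polk and 0.198 for Mgmt, and a difference between strains in these genes was not shown. Nbn (0.011) and Ercc5 (0.0113) followed Lig4.

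Within each strain of the same fit, a comparison added after the values were seen, the members called were Polk, Mgmt and Msh6 in C57L/J (2.09% of all genes called). In C57BL/6J they were Polk, Mgmt and Ercc5, higher, and Brca1, Lig4 and Polh, lower (3.58%). In CBA/J they were Polk and Mgmt, higher, and Nbn, lower (4.05%). The calls of Msh6 in C57L/J (adjusted p = 0.0493 by limma) and of Nbn in CBA/J (0.0455) stood close to the threshold. Leaving out 1 array of the strain at a time, Msh6 was called in 1 of 9 fits (adjusted p up to 0.175) and Nbn in 2 of 9 (up to 0.168). Polh in C57BL/6J was called in 3 of 9 such fits (up to 0.349), and the other members named here in at least 8 of 9. The replicate block also ended both calls (0.0805 and 0.0557), and the Nbn call was lost without the arrays with muscle transcripts (0.373). The rise of Ercc5 was 0.70 ± 0.11 in C57BL/6J, 0.36 ± 0.11 in CBA/J and 0.21 ± 0.11 in C57L/J. Nbn, the MRN subunit that recruits ATM, changed by -0.30 ± 0.084 in CBA/J and by -0.03 and 0.09 in C57L/J and C57BL/6J.

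The 4 muscle arrays of C57BL/6J bear on that strain's count. Without them Polk and Ercc5 were called in C57BL/6J and Mgmt, Brca1, Lig4 and Polh were not, with 2 irradiated lungs left against 3 controls. Leaving out C57BL/6J 0 Gy replicate 2 also left 2 called members in that strain. In C57L/J the count was 1 without 0 Gy replicate 2, and in CBA/J it was 6 without 12.5 Gy replicate 3.

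Before irradiation the strains differed in 1 member at an adjusted p under 0.05 (2.62% of all genes were called), Fanca, a subunit of the Fanconi core complex. Its mean at 0 Gy was 8.57 ± 0.47 (SD, n = 3) in C57BL/6J, 7.17 ± 0.13 in C57L/J and 7.34 ± 0.016 in CBA/J (adjusted p = 0.0282 by the limma F test). C57BL/6J lungs were also the highest after irradiation, averaging 8.64 and 8.71 against 6.96 to 7.30 in the other strains. The Fanca call was lost without the arrays with muscle transcripts, with the muscle score, with the replicate block, with the mean or the most variable probe set, and in 7 of 9 fits that left out 1 sham-irradiated lung (all but those without C57BL/6J replicate 1 or 3). Parp1 and Xrcc1 were next (adjusted p = 0.0949 and 0.0645), with Parp1 at 10.24 in C57L/J, 9.82 in C57BL/6J and 9.73 in CBA/J.

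The probe sets behind the members limit how single genes can be read. Within a strain, groups of 6 irradiated and 3 sham-irradiated lungs did not overlap for 4, 3 and 4 members upward in C57L/J, C57BL/6J and CBA/J (4.07%, 3.55% and 4.05% of all genes) and for 3, 4 and 4 downward (4.85%, 7.23% and 5.85%). Over all 27 lungs, 0 members separated downward (0.489%). The 37 genes had 82 probe sets, 13 genes having 1 and the most having 5. Over all strains Polk alone of the called members had a second probe set past the threshold. The calls of Brca1, Polh, Ercc5, Rad54l, Parp1 and Atm rested on their brightest one. In size, 3 of 4 Parp1 probe sets fell alike, and a dimmer Rad54l probe set changed by -0.72. Mgmt, Msh6, Ung and Xrcc5 had no second probe set. A mean level over the 27 lungs of at least an intensity of 100 was reached by 34 of the 37 members, and Brca1, Rad54l and Fancd2 were below it. Mgmt reached it through its irradiated lungs (mean 7.55), and its sham-irradiated mean of 6.14 was below it.

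**Figure D5:**
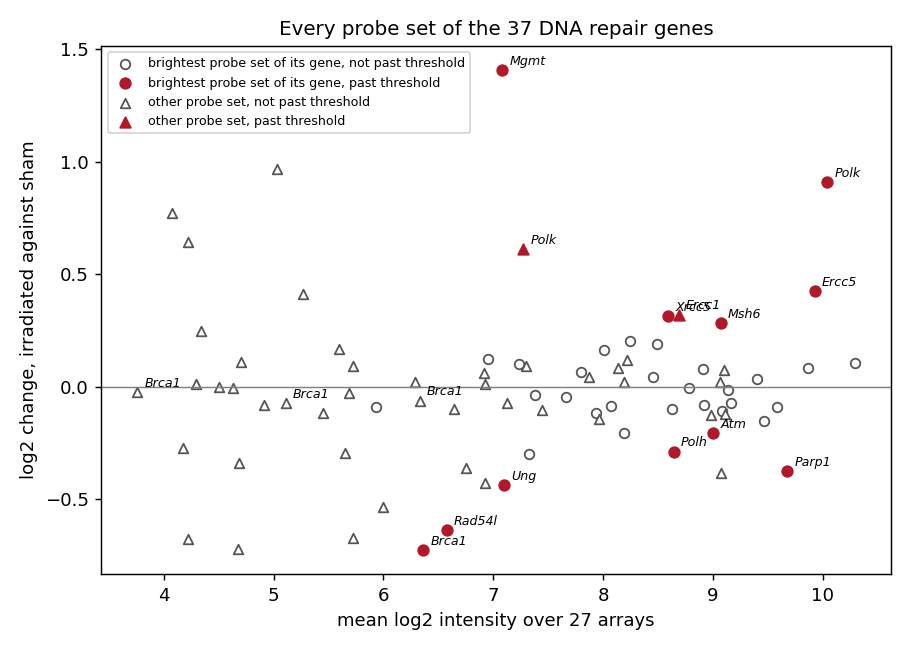
Log2 change, irradiated against sham (vertical axis), against the mean log2 intensity over 27 arrays (horizontal axis) for all 82 probe sets of the members. Circles are the brightest probe set of a gene, triangles the others, and red symbols have an adjusted p under 0.05 over probe sets. Polk has 2 red symbols, and the further Brca1 probe sets lie near 0.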

How the data were processed

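The authors deposited linear intensities of 45101 probe sets per array, for which the submitters' processing notes name Affymetrix Expression Console 1.1. The way probes were summarised was not given in the sources used here, and the paper describes quartile normalization. The trimmed mean, without the top and bottom 2%, was 500 on every array, with medians of 127.6 to 167. No further scaling was applied. A floor of 1 touched 37 to 111 values per array before the log2 step. No pair of arrays was identical, and 0 columns belonged to no sample.

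Of the probe sets 34958 carried 1 gene symbol in the platform annotation, 932 several and 9211 none, and only the first kind was used, giving 18194 genes, each through its brightest probe set. Genes were compared in limma 3.58.1 (lmFit, eBayes; R 4.3.3). The comparison over all strains and the interaction used 27 arrays with strain as a term. Comparisons within a strain used the arrays of both groups. Intervals are 95% intervals of limma. Adjusted p-values were corrected by Benjamini-Hochberg over all genes. Those given over probe sets were corrected over the 34958 probe sets with 1 gene symbol. P-values named unadjusted were left as they were. The script was tested on simulated data. Figures were drawn with matplotlib 3.10.9. The labels number the replicates 1 to 3, and the CBA/J strain labels carry a further numbering that runs with them at every dose, without a stated meaning. By the correlation of deviations from group means, no pair of groups met the criterion for pairing (all same-numbered arrays above 0.1), so the block was an alternative. The number of arrays limits the precision.

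The members, the gene lists and the tests were chosen with earlier results of these data known. All 37 members were named. Values on every array were given for Xpc, Ddb2, Polk and Polh and for up to 10 further called members, the largest changes first, and other pathway genes were named up to 4 per list, those with the largest changes. Alternatives were the study's random variance t test and its unadjusted p under 0.01, an intensity trend with a robust prior, other choices of probe set, a filter at a mean intensity of 100, quantile normalization, median-centring, a floor of 32, the replicate block, a muscle score as covariate, leaving out the arrays with muscle transcripts or each array in turn, and, within a strain, a fit over all arrays. Some genes of these pathways were not analysed here.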

Additional observations from a re-analysis of the deposited data

How the results depend on the processing

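Counts in this section are of members only, without the share of all genes called under each setting. They show how calls moved with the settings and do not set the members against other genes. Over all strains the 11 called members were 7 with the mean of probe sets and 5 with the most variable probe set, and 10 to 12 when each array was left out in turn. Brca1, Rad54l, Polh and Ercc5 were the calls lost with the mean, and Atm and Parp1 went as well with the most variable probe set. In 119 values of these 11 genes under other settings, leave-one-out apart, 0 changed direction and 15 lost the call. Without the 9 arrays with muscle transcripts 9 members were called, 8 of them among the 11, and with a filter on low values 9, since Brca1 and Rad54l did not pass it. The random variance t test and quantile normalization moved no count of calls by over 1.5 times. Centring on the median moved the median change of all genes to 0.11 for CBA/J at 12.5 Gy.

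Within strains, the counts changed as follows. C57L/J at 12.5 Gy went from 0 to 1 (Polk) with the filter, the floor of 32 or an intensity trend, to 2 in a fit over all arrays and to 4 at an unadjusted p under 0.01. C57L/J at 15 Gy went from 0 to 1 in the fit over all arrays and 2 at that p. C57BL/6J at 12.5 Gy gave 1 (Ercc5) with the filter, floor or trend, 4 in the fit over all arrays and 4 at that p, and at 15 Gy 1 with the trend, 3 and 2. CBA/J at 12.5 Gy gave 1 (Mgmt) with the filter, 2 and 3. The filter kept Mgmt only through its irradiated lungs (mean 7.55 over all strains). Its sham-irradiated mean, 6.14, was below the filter's level, so no conclusion is drawn from a call of Mgmt with the filter. CBA/J at 15 Gy, with 1 call, gave 0 with the mean or the most variable probe set, the muscle score, without muscle arrays or with the replicate block, 3 with the filter or trend, and 5 with the floor, the fit over all arrays or that p. Leaving out each array in turn gave 0 in all 6 comparisons. CBA/J at 12.5 Gy without muscle arrays could not be fitted, having 1 lung per group. For 15 against 12.5 Gy and the interaction the count was 0 in each leave-one-out fit, and the interaction gave 1 at that p. At 0 Gy the count for strains was 1, and 0 with the mean or most variable probe set, the muscle score, without muscle arrays or with the replicate block, 2 in the fit over all arrays, 3 with the filter or trend, 4 with the floor or at that p, and 0 to 1 leaving out an array.

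Of the added comparisons, C57L/J (3 calls) gave 5 without muscle arrays or at that p and 1 to 4 leaving out an array. C57BL/6J (6) gave 3 with the mean or most variable probe set, 2 without muscle arrays and 2 to 6 leaving out an array. CBA/J (3) gave 6 with the filter or floor, 7 with the muscle score, 9 at that p and 2 to 6 leaving out an array. None of these counts is set beside the share of all genes at its setting.

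The criterion for pairing was not met: in none of 9 pairs of groups did all same-numbered arrays correlate above 0.1 in their deviations, although in 2, both of 0 with 12.5 Gy (CBA/J and C57L/J), every array correlated best with its own number. For CBA/J, whose strain labels repeat the numbering, these 3 correlations were 0.0839, 0.25 and 0.13, and those of 0 with 15 Gy were -0.0728, 0.0369 and -0.0289. The replicate block changed the counts of CBA/J at 15 Gy and of strains at 0 Gy, both from 1 to 0, and no other call count by over 1.5 times.

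Members that were not called could change sign. Ddb2 took values of 0.0389 with the mean of probe sets, 0.083 with the most variable one, 0.00694 after quantile normalization, 0.0417 with median-centring, 0.0238 with the muscle score and 0.0249 without muscle arrays. For Lig3 the reversed values were 0.21 with the mean, 0.77 with the most variable probe set, 0.0334 with median-centring, 0.000495 with the muscle score and 0.00526 without muscle arrays. With the mean of probe sets Rad52 was -0.0194, Ogg1 -0.0866 and Fancd2 0.23, and with the most variable one Xrcc6 was -0.12, Ercc2 0.0909, Ogg1 -0.30 and Fancd2 0.64. Without muscle arrays Rad50 was 0.0247, Rad52 -0.0426, Parp2 -0.048 and Apex1 -0.0818. Quantile normalization gave 0.00364 for Brca2 and 0.00947 for Fanca, and median-centring 0.0121 and 0.00289. Leaving out each array in turn moved Ddb2 from -0.0493 to 0.043, Lig3 from -0.0463 to 0.0144, Ogg1 from -0.0128 to 0.24, Fancd2 from -0.27 to 0.0634 and Fanca from -0.11 to 0.0138.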
